A study of Mus musculus with 16 samples.

Results

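Immediate early genes are switched on within minutes of a stimulus, before new protein is made, and their mRNA falls again within hours, so in brain tissue they are used as a record of recent neuronal activity. Here 34 genes listed under this name were followed across 16 mouse RNA-seq libraries, and the timing of each was not tested. They were named as a list of activity-induced genes, and every gene row whose Ensembl ID carries one of these symbols in the GENCODE annotation was taken. All 34 were found among the 38924 genes of the count tables, and all 34 were among the 18350 genes with enough reads to be tested. The list holds 7 genes of the AP-1 and related bZIP factors, 4 EGR zinc-finger factors, 3 NR4A nuclear receptors, 3 KLF zinc-finger factors, 5 genes of neuronal effectors and secreted proteins, 3 phosphatases of MAP kinases and 9 genes of growth control and stress.

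The libraries form 4 groups of 4, by genotype (RGS4 KO or WT) and treatment (CFA or naive), written here RGS4KO CFA (libraries 13 to 16), WT CFA (9 to 12), RGS4KO naive (5 to 8) and WT naive (1 to 4). CFA is the usual short form of complete Freund's adjuvant, an emulsion that causes lasting inflammation where it is injected, but the labels give only the 3 letters and no site or time. RGS4 is a protein that shortens signals of G protein-coupled receptors. The series text states that the line carries a floxed RGS4 gene and that Cre came from an adeno-associated virus in the ventral posterolateral (VPL) nucleus of the thalamus, a relay of body sensation. The sample labels do not say whether WT mice carried the floxed gene or which virus they had, and the sources used here give neither strain nor age. Each library pooled 4 punches of 12 gauge from 2 mice. All 16 samples are labelled female, whereas the protocol names male mice.

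Depth ranged between 18.1 and 78.8 M reads in genes over the 16 libraries, with group medians of 40.85 M reads in RGS4KO CFA, 48.05 M in WT CFA, 26.2 M in RGS4KO naive and 40.2 M in WT naive. Rgs4 itself was not lower in the libraries labelled RGS4KO. It averaged 84.0 ± 5.5 CPM (the count in proportion to the library total, with TMM scaling) in RGS4KO CFA and 89.3 ± 6.65 CPM in WT CFA, and 81.3 ± 2.74 CPM in RGS4KO naive and 80.8 ± 3.66 CPM in WT naive (SD, n = 4 each). The log2 fold change by genotype was -0.09 ± 0.05 (SE) after CFA (adjusted p = 0.519) and 0.01 ± 0.05 in naive mice (adjusted p = 0.979). Genotype below therefore refers to the libraries labelled RGS4KO. All 18 thalamic relay markers were in the files, 1 of them with a mean below 1 CPM, and their summed level ranged between 1119 and 1287 CPM over the 16 libraries. Markers of cortical and hippocampal neurons were present as well, with sums between 794.1 and 967.4 CPM. In such bulk samples, fewer cells of a type and less RNA per cell cannot be told apart.

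Members of the list are turned on through the kinases ERK and RSK and through calcium-dependent kinases, which act on the transcription factors CREB and SRF already bound at their promoters. CREB binds the cAMP response element (CRE), and SRF with its ELK partners binds the CArG box. Many of the proteins made, such as FOS, EGR1 and NR4A1, are transcription factors for a second wave of genes. Others, such as ARC, act at synapses, and phosphatases such as DUSP1 switch the kinases off again.

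The promoters of 6 members whose values are given in full are shown because they carry CREB-type sites close to the start of transcription. RefSeq windows on GRCm38.p6, from 250 bases before to 50 after each start, were given for 24 of the 34 genes, and Arc, Nptx2, Ier2, Vgf, Fosl1, Egr3, Egr1, Klf10, Trib1 and Sik1 had none. Capitals mark the short CRE site, TGACG or on the other strand CGTCA, and a full CRE, TGACGTCA, is 2 short sites that overlap. The first short site begins 231 bases before the start in Nr4a3 and the last 66 bases before the start in Fos, among those printed.
Nr4a3 (chr4:48045055-48045354, plus strand): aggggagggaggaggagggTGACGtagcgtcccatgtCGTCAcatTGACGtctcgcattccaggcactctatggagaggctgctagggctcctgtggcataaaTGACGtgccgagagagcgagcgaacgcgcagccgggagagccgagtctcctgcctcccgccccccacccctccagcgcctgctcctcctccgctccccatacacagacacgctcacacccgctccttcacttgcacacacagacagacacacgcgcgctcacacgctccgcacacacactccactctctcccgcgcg
Nr4a2 (chr2:57123954-57124253, minus strand): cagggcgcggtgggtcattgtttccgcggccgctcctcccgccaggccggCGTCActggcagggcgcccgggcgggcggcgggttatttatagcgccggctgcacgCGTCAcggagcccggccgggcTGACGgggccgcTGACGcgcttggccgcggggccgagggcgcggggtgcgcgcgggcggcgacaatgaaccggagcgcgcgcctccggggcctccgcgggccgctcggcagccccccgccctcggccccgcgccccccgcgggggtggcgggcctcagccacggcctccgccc
Fos (chr12:85473640-85473939, plus strand): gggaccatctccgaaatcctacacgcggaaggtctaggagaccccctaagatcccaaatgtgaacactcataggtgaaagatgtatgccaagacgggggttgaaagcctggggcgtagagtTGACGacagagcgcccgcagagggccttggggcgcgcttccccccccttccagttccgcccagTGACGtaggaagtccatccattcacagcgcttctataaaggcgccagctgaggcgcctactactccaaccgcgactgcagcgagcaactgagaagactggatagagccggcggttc
Egr4 (chr6:85513540-85513839, minus strand): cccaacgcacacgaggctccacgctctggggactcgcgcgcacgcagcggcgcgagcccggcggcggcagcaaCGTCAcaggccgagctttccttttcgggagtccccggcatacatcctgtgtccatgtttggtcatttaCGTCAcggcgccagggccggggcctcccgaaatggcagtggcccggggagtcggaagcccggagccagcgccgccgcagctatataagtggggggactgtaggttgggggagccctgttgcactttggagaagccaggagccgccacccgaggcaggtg
Btg2 (chr1:134079106-134079405, minus strand): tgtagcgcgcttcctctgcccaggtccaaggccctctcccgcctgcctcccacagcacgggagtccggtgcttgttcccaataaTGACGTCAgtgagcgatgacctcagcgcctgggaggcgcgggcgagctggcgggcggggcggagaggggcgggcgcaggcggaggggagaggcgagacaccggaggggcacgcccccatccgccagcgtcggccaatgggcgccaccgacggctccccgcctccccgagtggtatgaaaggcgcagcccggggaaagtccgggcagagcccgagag
Npas4 (chr19:4989922-4990221, minus strand): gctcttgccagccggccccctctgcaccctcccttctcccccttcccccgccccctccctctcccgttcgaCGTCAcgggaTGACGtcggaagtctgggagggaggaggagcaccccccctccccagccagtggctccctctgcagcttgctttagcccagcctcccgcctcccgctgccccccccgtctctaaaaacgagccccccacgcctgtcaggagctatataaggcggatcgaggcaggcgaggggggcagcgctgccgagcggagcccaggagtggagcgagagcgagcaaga

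Nr4a3 and Nr4a2 have 4 short sites each. Fos, Egr4 and Npas4 have 2 each, and Btg2 has 2 that form 1 full CRE. On both strands, a short site was found for 17 of the 24 genes, or in 23 of their 34 windows (some genes have several starts), and in 20.8% of all 32851 windows. The full CRE was found for 3 genes, Btg2, Dusp1 and Maff, in 3 of the 34 windows (1.79% of all windows). The CArG box of SRF was found for Dusp5 and Egr2, in 5 of the 34 (1.63%). The EGR site GCGGGGGCG was found for Fosl2, Klf2, Klf4 and Nr4a1, in 4 windows (2.91%), and GCGTGGGCG for Maff, in 1 (0.612%). The AP-1 site TGANTCA was found for Csrnp1 (7.81%), TATAAA for 5 genes, Fos, Gadd45b, Gadd45g, Junb and Nr4a2 (13.6%), and the NR4A site AAAGGTCA for 0 (1.51%). A match describes the letters of the window and not the binding of a factor in this tissue.

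The 34 genes were present at levels that spanned several orders of magnitude. Compared per kilobase of merged exon, the neuropeptide precursor Vgf was highest, with a mean of 89.6 CPM per kb over the 16 libraries. Egr1 followed with 12.3, the secreted synaptic pentraxin Nptx2 with 11.7 and Jun with 9.99 CPM per kb. At the low end stood Egr3 with 0.35, the prostaglandin synthase gene Ptgs2 with 0.157 and Egr2 with 0.0467 CPM per kb. Egr2 had between 1 and 17 reads per library and Ptgs2 between 9 and 67, so both are measured with wide counting error. Exons of Fosl1, Jun, Pim1 and Dusp1 overlap those of another gene in the annotation (by 1163, 232, 488 and 11 bases), and reads there are uncertain without strand. The ratio of the highest to the lowest of the 16 libraries was 8.55 for Egr2 and 2.44 for Ptgs2, which have few reads, 2.85 for Fos, 2.48 for Junb and 2.43 for Nr4a2, and 1.24 for both Jun and Dusp1. The genes are short: their median span was 6338 bp, against 24880 bp for the 15403 protein-coding genes tested, and 67.6% of them spanned under 10000 bp, against 24.1%.

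**Figure D1:**
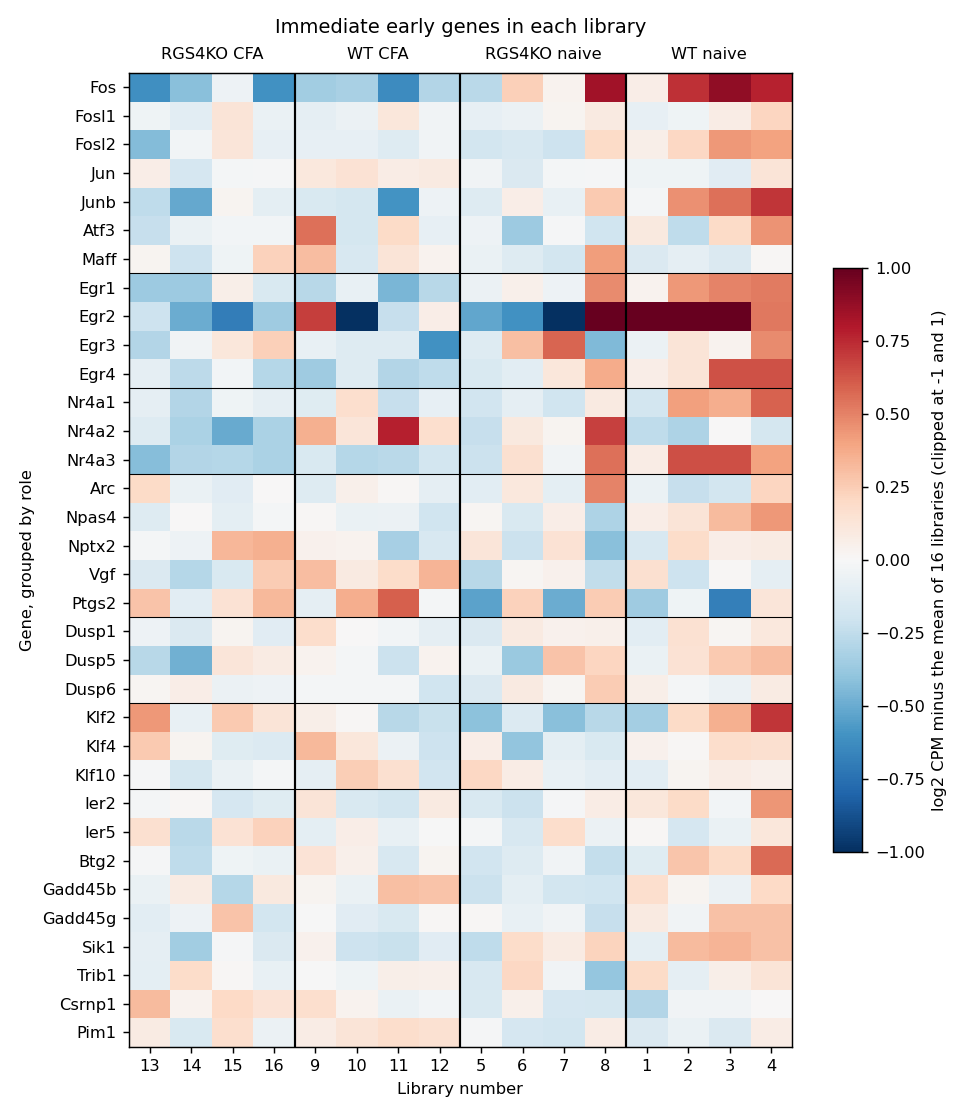
Levels of the 34 immediate early genes (vertical, grouped by role) in each of the 16 libraries (horizontal), as log2 CPM minus the gene's mean over the 16 libraries, with colours clipped at -1 and 1. Fos, Junb, Egr1, Egr4 and Nr4a3 are red in most WT naive libraries and pale or blue in both CFA groups, with WT naive library 1 paler than the other WT naive libraries and RGS4KO naive library 8 the reddest of its group.

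CFA and naive mice of the WT genotype were compared first. Of the 34 genes, 5 fell and 0 rose after CFA, at an adjusted p under 0.05 in edgeR's quasi-likelihood test with Benjamini-Hochberg adjustment over all 18350 genes. Over all genes tested, 0.807% were called lower and 1.42% higher in this comparison. The 5 genes were Fos and Junb of AP-1, Egr1 and Egr4 of the EGR family and Nr4a3 of the NR4A family, and all are transcription factors. Their levels in WT CFA lay between 0.486 and 0.637 of those in WT naive. The median log2 change of the 34 genes was -0.11, against 0.0 over all genes tested.

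Fos (ENSMUSG00000021250.7, chr12:85473890-85477273 on GRCm38, plus strand) encodes the AP-1 subunit most used as a marker of activated neurons. It had 10.6, 10.8, 8.75 and 11 CPM in WT CFA and 14.1, 22.4, 24.9 and 23.0 CPM in WT naive. The groups did not overlap, and WT naive library 1 lay well below the other WT naive libraries. Fos averaged 10.3 ± 1.04 CPM in WT CFA and 21.1 ± 4.79 CPM in WT naive (SD, n = 4 each), a log2 change of -1.04 ± 0.23 (SE; adjusted p = 0.035). Junb (ENSMUSG00000052837.5, chr8:84974484-84978718, minus strand), a partner of FOS in AP-1, had 8.84, 8.68, 6.5 and 9.5 CPM in WT CFA and 9.68, 13.5, 14.4 and 16.1 CPM in WT naive. Its groups were separated by a narrow gap, again because of WT naive library 1, and its log2 change was -0.69 ± 0.15 (adjusted p = 0.0325). In the annotation 173 bases of Junb exon are shared with Prdx2 on the other strand, and the kit does not mark strand, so some Junb reads are uncertain.

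Egr1, on chromosome 18, encodes a zinc-finger factor with a high basal level in neurons. It had 44.3, 51.0, 39.2 and 44.4 CPM in WT CFA and 55.1, 72.5, 75.6 and 77.1 CPM in WT naive, with no overlap, and a log2 change of -0.65 ± 0.14 (adjusted p = 0.0374). Its relative Egr4 (ENSMUSG00000071341.3, chr6:85511121-85513589, minus strand) was expressed at a far lower level, at 1.2, 1.4, 1.25 and 1.29 CPM in WT CFA and 1.61, 1.68, 2.38 and 2.39 CPM in WT naive. These groups did not overlap either, and the WT naive libraries fell into a lower and a higher pair (log2 change -0.65 ± 0.15, adjusted p = 0.024). All 4 EGR genes had fitted changes below 0, with a family median of -0.65. Egr3 averaged 1.3 ± 0.206 CPM in WT CFA and 1.68 ± 0.285 CPM in WT naive, with no overlap but no call, and Egr2 averaged 0.125 ± 0.0716 and 0.275 ± 0.0609 CPM in these groups (adjusted p = 0.126).

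Nr4a3 (ENSMUSG00000028341.3, chr4:48045153-48086447, plus strand), an orphan nuclear receptor that acts without a known ligand, had the lowest adjusted p of the list. It had 4.42, 4.03, 4.08 and 4.33 CPM in WT CFA and 5.17, 7.68, 7.69 and 6.49 CPM in WT naive. The WT CFA libraries were close together and all lay below WT naive, where library 1 was again lowest (log2 change -0.69 ± 0.13, adjusted p = 0.0108). Nr4a1 averaged 8.87 ± 1.08 CPM in WT CFA and 11.6 ± 2.45 CPM in WT naive and was not called (adjusted p = 0.115). The third NR4A gene, Nr4a2 (ENSMUSG00000026826.7, chr2:57106830-57124003, minus strand), had its fitted change in the other direction, and its promoter window, like that of Nr4a3, holds 4 short CRE sites. It had 10.8, 9.21, 14.5 and 9.48 CPM in WT CFA and 7.08, 6.81, 8.49 and 7.5 CPM in WT naive. These groups did not overlap, but the log2 change of 0.56 ± 0.18 was not called (adjusted p = 0.117), and it was called by DESeq2 (adjusted p = 0.0225).

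**Figure D2:**
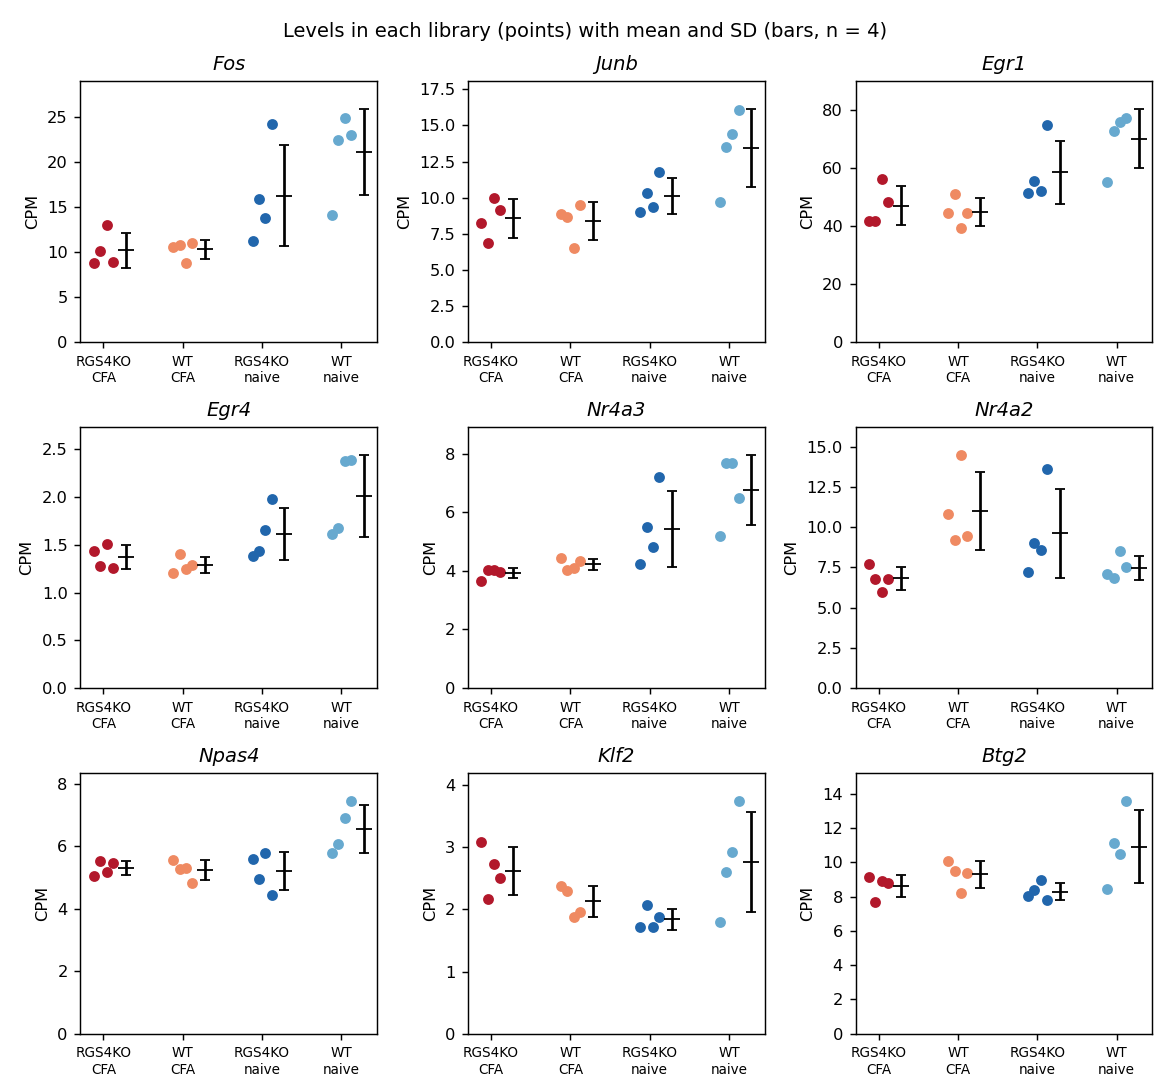
Levels in CPM (vertical, from 0) of 9 members in the 4 groups (horizontal), chosen after their values were seen; points are libraries and bars are the mean and SD of 4. In both CFA groups the points of Fos and Nr4a3 lie below the lowest WT naive point, as do those of Egr1 except RGS4KO CFA library 15 (56.0 CPM, against a lowest WT naive value of 55.1 CPM), while Nr4a2 is highest in WT CFA and in 1 RGS4KO naive library.

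Among the neuronal genes, Npas4 (ENSMUSG00000045903.8, chr19:4984355-4990316, minus strand), a bHLH-PAS factor induced by calcium entry, came nearest to a call. It had 5.57, 5.28, 5.31 and 4.83 CPM in WT CFA and 5.8, 6.07, 6.9 and 7.47 CPM in WT naive, without overlap (log2 change -0.32 ± 0.09, adjusted p = 0.0643). Arc, whose protein controls AMPA receptor uptake at synapses, averaged 19.4 ± 1.13 CPM in WT CFA and 19.1 ± 2.78 CPM in WT naive. Vgf averaged 309.8 ± 24.6 and 259.2 ± 28.4 CPM in the same groups, Nptx2 27.4 ± 3.3 and 30.2 ± 2.95 CPM, and Ptgs2 0.828 ± 0.189 and 0.606 ± 0.144 CPM, none of them called. Of these 5 neuronal effectors and secreted proteins, 2 had fitted changes below 0 and 3 above 0.

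Of the other AP-1 and bZIP genes, Fosl2 averaged 8.54 ± 0.23 CPM in WT CFA and 11 ± 1.31 CPM in WT naive, with no overlap (adjusted p = 0.0818). Jun averaged 34.1 ± 0.719 and 31.5 ± 2.35 CPM in these groups, and Fosl1, Atf3 and Maff stayed within a log2 change of -0.06 to 0.17. None of the 3 MAP kinase phosphatase genes Dusp1, Dusp5 and Dusp6 was called, with a median log2 change of -0.08. Sik1, a kinase that restrains the CREB coactivators, averaged 12.3 ± 1.07 CPM in WT CFA and 15.6 ± 2.06 CPM in WT naive (adjusted p = 0.0974). The remaining 8 growth and stress genes and the 3 KLF genes were not called either.

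At an unadjusted p under 0.05, 13 of the 34 were lower in WT CFA (8.54% of all genes) and 4 higher (9.02%). The groups did not overlap for 8 lower genes (5.17% of all genes) and 2 higher ones (6.13%), Nr4a2 and the kinase gene Pim1. The count of 5 lower genes depended on single libraries. It was 1 without WT CFA library 9 or 11 or WT naive library 3 or 4, 2 without WT CFA library 12 or WT naive library 2, 3 without WT CFA library 10, and 8 without WT naive library 1. Without RGS4KO naive library 8, 7 were called lower and Nr4a2 higher. Over all genes, between 0.963% and 4.08% were called in either direction in these fits (2.23% with all libraries). With each library left out in turn, Nr4a3 kept its call 16 of 16 times (adjusted p between 0.00134 and 0.0452), while Egr1 lost it in 8, Fos in 7, Junb in 6 and Egr4 in 5. Fits without an RGS4KO library keep all WT counts, so they mainly alter the pooled spread and the adjustment. Each loss of Fos, Junb and Egr4 came in a fit without a WT library. Among those fits, Fos kept its call only without WT naive library 1 (adjusted p = 0.0164). DESeq2 called 10 members, 9 lower and Nr4a2 higher (4.15% of all genes in either direction), whereas 2 were called with no filter on low counts (Nr4a3 and Egr4; 1.31% of all genes) and 1 with all libraries thinned to the shallowest (Junb; 1.25%).

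**Figure D3:**
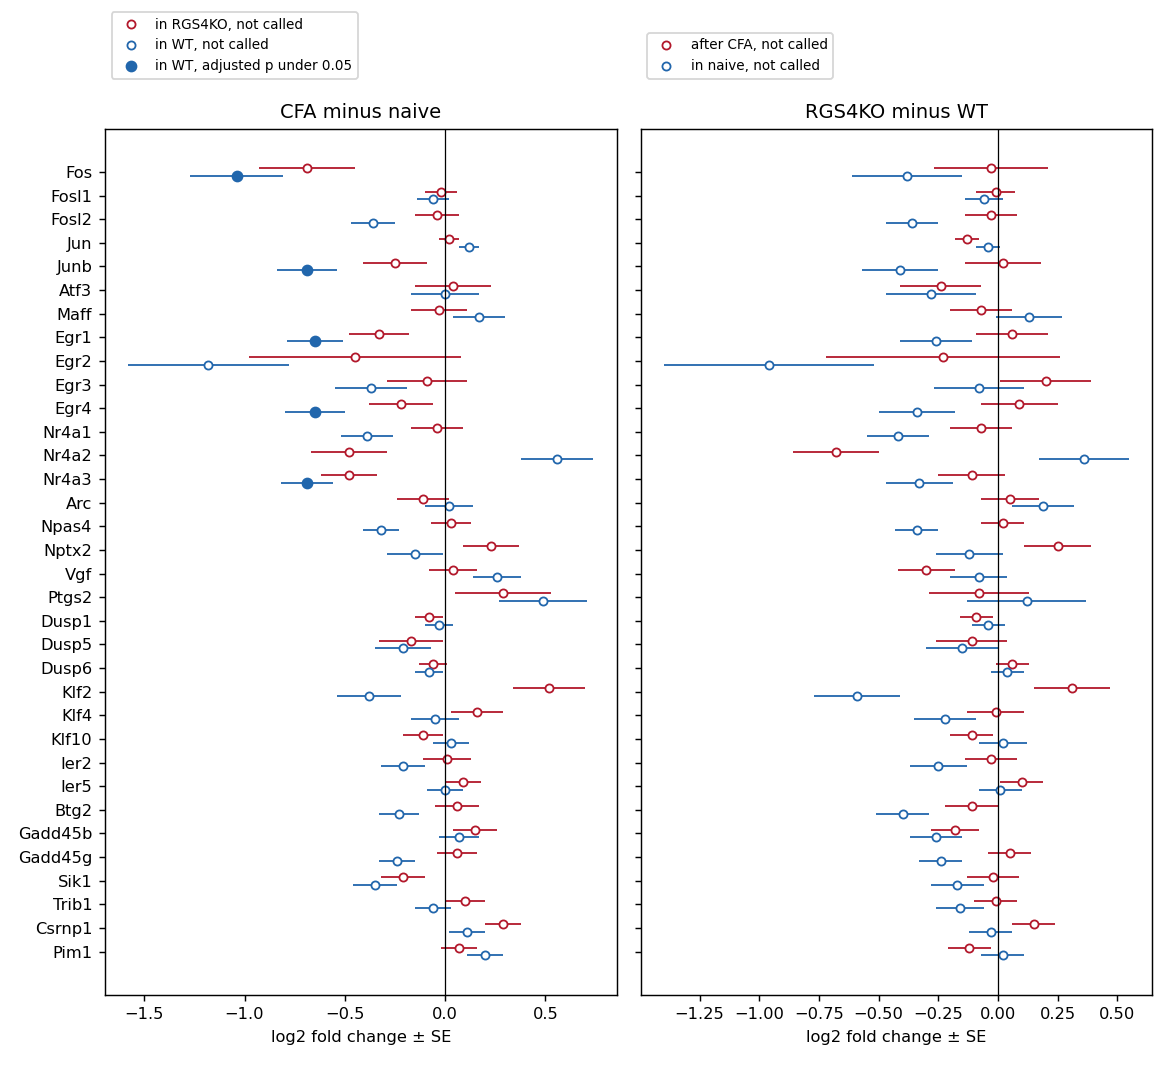
Log2 fold change with its SE (horizontal) of each of the 34 genes (vertical), for CFA minus naive in RGS4KO and in WT (left) and for RGS4KO minus WT after CFA and in naive mice (right); filled points passed an adjusted p of 0.05. The 5 filled points, all on the left and below 0, are the WT changes of Fos, Junb, Egr1, Egr4 and Nr4a3.

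Markers of another cell group moved with CFA in WT. A list of 11 genes of oculomotor and Edinger-Westphal neurons, which lie in the midbrain and not in the thalamus, had 10 members in the files, 0 of them at 0 in all libraries and 4 with a mean below 1 CPM. The list holds genes already known from these data to be higher after CFA in WT, so it is no independent evidence of that direction. Its summed level was 452.7, 302.4, 401.6 and 358.7 CPM in WT CFA (libraries 9 to 12) and 55.5, 62.9, 71.7 and 37.9 CPM in WT naive (1 to 4), so the groups lay far apart. In RGS4KO CFA it was 82.6, 159.4, 102.5 and 228.6 CPM (13 to 16) and in RGS4KO naive 45.9, 214.5, 308.3 and 65.7 CPM (5 to 8), and these groups overlapped. Most of the sum came from 1 gene, Cartpt. It averaged 276.4 CPM in WT CFA and 33.2 CPM in WT naive, where the mean sums were 378.9 and 57.0 CPM. With the log2 sum of the list as a covariate, added after the data were seen, the log2 change of CFA in WT was -0.91 for Fos, -0.78 for Nr4a3, -0.58 for Junb, -0.49 for Egr4 and -0.48 for Egr1, and 0 of the 34 genes were called (0.763% of all genes were; adjusted p of the 5 between 0.144 and 0.438). The list separates WT CFA from WT naive completely, so within WT the list and the treatment cannot be told apart.

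Of the other cell-type marker lists, the 10 astrocyte genes also had sums that did not overlap, between 3445 and 3543 CPM in WT CFA and between 3291 and 3406 CPM in WT naive. None of the 10 was called with CFA in WT, and Gjb6 and Fgfr3 were higher in the CFA average (1.08% of all genes were). The 10 oligodendrocyte genes summed to 9455 ± 550.4 CPM in WT CFA and 7912 ± 1034 CPM in WT naive, with overlap, 9 of the 10 with fitted changes above 0 and 0 called. Sim1 of the hypothalamus list was called higher with CFA in WT (log2 change 0.84 ± 0.13, adjusted p = 0.00222). Dsp of the cortical and hippocampal list, with a mean of 0.78 CPM, was also higher (1.46 ± 0.37, adjusted p = 0.0499). Notch3 of the mural cell list was lower (-0.23 ± 0.06, adjusted p = 0.0398). Each of these lists was split. Of the hypothalamus genes tested, 3 had fitted changes below 0 and 2 above 0. For the cortical and hippocampal list 6 were below 0 and 12 above 0, and for the mural list 3 and 7. Over all genes, 1.42% were called higher and 0.807% lower. The part of these cells in the members' changes was not tested.

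Within a group the oculomotor list and Fos did not run in 1 order. In RGS4KO naive, libraries 6 and 7, with the high list sums, had 15.9 and 13.8 CPM of Fos, whereas libraries 5 and 8, with the low sums, had 11.2 and 24.2 CPM. Nr4a2 also marks midbrain dopamine neurons, so a list of their genes was added after its values were seen. All 8 genes were in the files, 1 with a mean below 1 CPM, and the list summed to 583.5, 254.4, 476.2 and 490.5 CPM in WT CFA, against 688.4, 782.4, 590.6 and 430.0 CPM in WT naive. The ranges of this sum overlapped. Most of the sum came from Slc18a2, Ddc and Aldh1a1, which averaged 254.2, 203.4 and 105.0 CPM in WT naive, where the mean sum was 622.9 CPM. The 8 genes of the list were split, with 4 fitted changes below 0 and 4 above 0. Of them 1, Aldh1a1, was higher in WT CFA without overlap (6.13% of all genes were). The part of these neurons in the Nr4a2 values was not tested. Over the 16 libraries the defining markers of dopamine neurons, Th and Slc6a3, ranged between 19.0 and 38.4 CPM and between 3.97 and 9.01 CPM. Of the 17 thalamic markers tested, 2 were called higher with CFA in WT (1.42% of all genes were). They were Cbln1 (log2 change 0.58 ± 0.1, adjusted p = 0.00737) and Ntng1 (0.21 ± 0.04, adjusted p = 0.0105). The 17 were split, with 9 fitted changes below 0 and 8 above 0. Prkcd and Plekhg1 were higher in the CFA average (adjusted p = 0.0255 and 0.024), in which 1.08% of all genes were called higher. The sum of the 18 thalamic markers was 1186 ± 46.9 CPM in WT CFA and 1154 ± 37.3 CPM in WT naive.

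**Figure D4:**
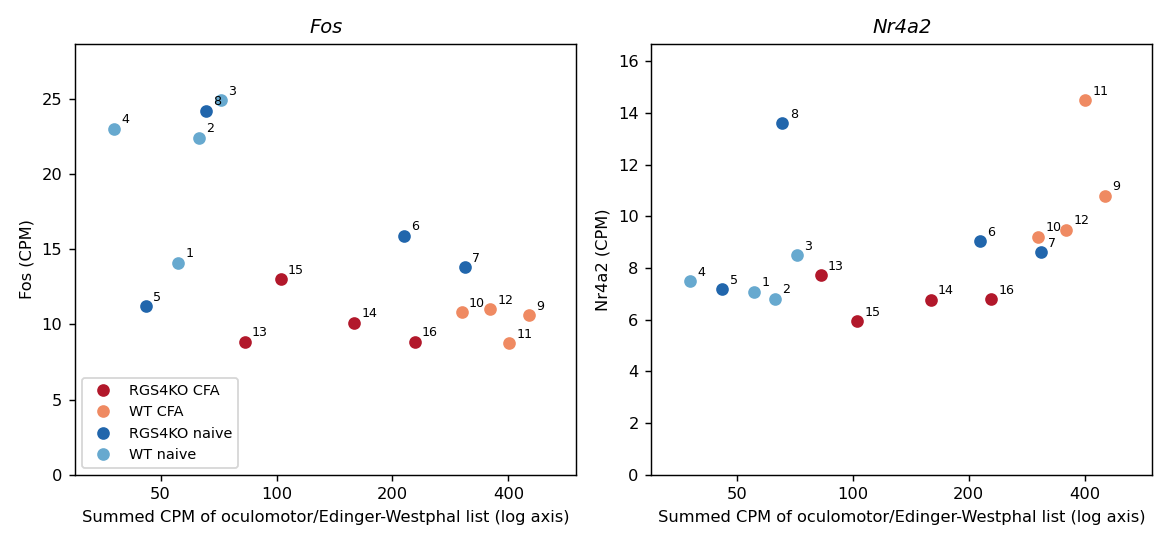
Fos (left) and Nr4a2 (right) in CPM against the summed CPM of the oculomotor and Edinger-Westphal list (horizontal, log axis), with 1 numbered point per library coloured by group. The WT CFA points lie between 302.4 and 452.7 CPM on the list and the WT naive points between 37.9 and 71.7 CPM, while within RGS4KO naive the list does not order the libraries by Fos.

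The same treatment was then compared in the libraries labelled RGS4KO. Of the 34 genes, 0 were called by edgeR (0.185% of all genes were called in either direction) and 0 by DESeq2 (0.496%). At an unadjusted p under 0.05, 4 were lower (4.03% of all genes) and 2 higher (3.78%). For 1 lower gene, Nr4a3 (2.17% of all genes), and 1 higher one, Klf2 (2.12%), the groups did not overlap. The lowest p again belonged to Nr4a3, at 3.66, 4.01, 4.04 and 3.95 CPM in RGS4KO CFA and 4.23, 5.49, 4.8 and 7.21 CPM in RGS4KO naive. These groups did not overlap, and the log2 change was -0.48 ± 0.14 (unadjusted p = 0.00379, adjusted p = 0.313). Fos had 8.84, 10.1, 13 and 8.85 CPM in RGS4KO CFA and 11.2, 15.9, 13.8 and 24.2 CPM in RGS4KO naive, where library 8 stood above the rest and library 5 lay inside the CFA range (log2 change -0.69 ± 0.24, adjusted p = 0.458). Egr1 had a log2 change of -0.33 ± 0.15 (adjusted p = 0.629), Junb of -0.25 ± 0.16 (0.757) and Egr4 of -0.22 ± 0.16 (0.797), and the median over the 34 genes was -0.02.

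Both higher genes were weakly expressed. Klf2 (ENSMUSG00000055148.7, chr8:72319033-72321656, plus strand), a zinc-finger factor also made by endothelial cells, had 3.08, 2.17, 2.73 and 2.5 CPM in RGS4KO CFA and 1.72, 2.07, 1.71 and 1.88 CPM in RGS4KO naive. The groups did not overlap (log2 change 0.52 ± 0.18, adjusted p = 0.421). Csrnp1 (ENSMUSG00000032515.7, chr9:119971163-119984658, minus strand), a nuclear DNA-binding protein, had 5.62, 4.63, 5.18 and 4.96 CPM in RGS4KO CFA and 4.06, 4.67, 4.03 and 4.0 CPM in RGS4KO naive. Library 6 of RGS4KO naive reached the CFA range (log2 change 0.29 ± 0.09, adjusted p = 0.358). The 13 endothelial markers summed to 241.6 ± 21.9 CPM in RGS4KO CFA, 228.3 ± 14.8 in WT CFA, 234.3 ± 10.3 in RGS4KO naive and 222.8 ± 15.7 CPM in WT naive (n = 4 each), with ranges that overlapped throughout. None of the 13 was at 0 in all libraries or had a mean below 1 CPM.

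Whether the CFA change differed between genotypes was tested by the interaction, the change in RGS4KO minus the change in WT. Of the 34 genes, 0 were called (0.0654% of all genes were), with 1 lower (5.39% of all genes) and 3 higher (4.47%) at an unadjusted p under 0.05. For Fos the difference was 0.35 ± 0.33 (SE; adjusted p = 0.769) and for Egr1 0.32 ± 0.21 (0.64), so that a call in WT and none in RGS4KO does not show a difference between the genotypes. The lowest p was that of Nr4a2, at -1.03 ± 0.26 (unadjusted p = 0.0012, adjusted p = 0.21), with a change of -0.48 ± 0.19 in RGS4KO and 0.56 ± 0.18 in WT. Klf2 followed at 0.9 ± 0.24 (adjusted p = 0.223), with 0.52 ± 0.18 in RGS4KO and -0.38 ± 0.16 in WT, and Npas4 at 0.35 ± 0.13 (0.38). DESeq2 called 1 member here, Nr4a2 (adjusted p = 0.00601), and 0.474% of all genes. Of the 34 genes, 9 had an interaction below 0 (50.1% of all genes) and 25 above 0, with a median of 0.17 against 0.0 over all genes.

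The genotypes were compared in naive mice next, and here 0 of the 34 genes were called (1.45% of all genes were, in either direction). At an unadjusted p under 0.05, 12 were lower (6.67% of all genes) and 0 higher (7.1%) in RGS4KO naive. Fitted changes were below 0 for 26 of the 34 genes (49.9% of all genes), with a median log2 change of -0.16. The comparison shares the WT naive libraries with the CFA comparison in WT, so the 2 are not independent. Btg2 (ENSMUSG00000020423.6, chr1:134075170-134079120, minus strand), an antiproliferative gene, had 8.04, 8.39, 8.94 and 7.8 CPM in RGS4KO naive and 8.42, 11.1, 10.5 and 13.6 CPM in WT naive. WT naive library 1 lay among the RGS4KO libraries and the others above them (log2 change -0.4 ± 0.11, adjusted p = 0.0802). Btg2 was called by DESeq2 (adjusted p = 0.0311), the 1 member that DESeq2 called (2.5% of all genes were).

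Npas4 had 5.6, 4.97, 5.79 and 4.46 CPM in RGS4KO naive and 5.8, 6.07, 6.9 and 7.47 CPM in WT naive. The gap between the groups was very narrow (log2 change -0.34 ± 0.09, adjusted p = 0.0879). Klf2 had 1.72, 2.07, 1.71 and 1.88 CPM in RGS4KO naive and 1.8, 2.6, 2.92 and 3.75 CPM in WT naive, with library 1 of WT naive inside the RGS4KO range (log2 change -0.59 ± 0.18, adjusted p = 0.116). Gadd45b, a stress-induced gene linked to DNA demethylation in neurons, was the other member without overlap, at 3.66 ± 0.13 CPM in RGS4KO naive and 4.39 ± 0.366 CPM in WT naive (2 lower genes without overlap, against 3.41% of all genes). Without WT naive library 1, 3 members were called lower, namely Btg2, Nr4a1 and Klf2 (1.22% of all genes were called), and without RGS4KO naive library 8, 1 was called, Fosl2 (0.914%).

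The genotypes were then compared after CFA. Of the 34 genes, 0 were called (1.6% of all genes were), with 3 lower (6.55% of all genes) and 0 higher (5.73%) at an unadjusted p under 0.05 and a median log2 change of -0.03. For 2 lower genes, Nr4a2 and Jun, the groups did not overlap (4.24% of all genes). Nr4a2 had 7.73, 6.78, 5.95 and 6.79 CPM in RGS4KO CFA and 10.8, 9.21, 14.5 and 9.48 CPM in WT CFA. These ranges lay apart (log2 change -0.68 ± 0.18, adjusted p = 0.0813). The gene was called by DESeq2 (adjusted p = 0.00301), which called 1 member in all (2.53% of all genes). The midbrain dopamine list summed to 516.7 ± 68.8 CPM in RGS4KO CFA and 451.2 ± 139.5 CPM in WT CFA. Its genes were split, with 5 of 8 fitted changes below 0 and 3 above 0. Th averaged 25.0 ± 4.16 and 29.3 ± 7.07 CPM in these groups, and Slc6a3 5.5 ± 0.991 and 7.31 ± 1.53 CPM. The oculomotor list summed to 143.3 ± 65.5 CPM in RGS4KO CFA and 378.9 ± 63.9 CPM in WT CFA. The part of either cell group in the Nr4a2 values was not tested.

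Jun (ENSMUSG00000052684.3, chr4:95049034-95052222, minus strand) had 33.2, 28.3, 31.4 and 31.6 CPM in RGS4KO CFA and 34.2, 35.1, 33.4 and 33.8 CPM in WT CFA. The groups did not overlap, although the difference was small (log2 change -0.13 ± 0.05, adjusted p = 0.278). Vgf (ENSMUSG00000037428.8, chr5:137026392-137033351, plus strand) had 238.6, 216.4, 237.2 and 313.7 CPM in RGS4KO CFA and 326.2, 280.0, 299.6 and 333.3 CPM in WT CFA, with RGS4KO CFA library 16 inside the WT range (log2 change -0.3 ± 0.12, adjusted p = 0.321). Of the 5 genes called with CFA in WT, Fos averaged 10.2 ± 1.94 CPM in RGS4KO CFA and 10.3 ± 1.04 CPM in WT CFA, and Egr1 46.9 ± 6.74 and 44.7 ± 4.86 CPM.

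Averaged over both genotypes, 5 of the 34 genes fell with CFA (0.73% of all genes) and 0 rose (1.08%), and they were the same 5 as in WT. The log2 change was -0.58 ± 0.1 for Nr4a3 (adjusted p = 0.00274), -0.87 ± 0.16 for Fos (0.0185), -0.49 ± 0.1 for Egr1 (0.0348), -0.44 ± 0.11 for Egr4 (0.0476) and -0.47 ± 0.11 for Junb (0.048). Nr4a3 and Fos kept this call in each of the 16 fits without 1 library, whereas Egr1 lost it in 10, Egr4 in 13 and Junb in 14. The count of members called varied between 2 and 7 (between 1.1% and 2.67% of all genes, in either direction). It was 2 or 3 in the fits that left out any of WT naive 2, 3 or 4, RGS4KO naive 6, 7 or 8, any WT CFA library, or RGS4KO CFA 13, 14 or 16. Averaged over both treatments, the genotype called 0 of the 34 genes (3.73% of all genes in either direction). At an unadjusted p under 0.05, 8 were lower (7.11% of all genes) and 0 higher (7.23%). Btg2 was nearest to a call (log2 change -0.25 ± 0.08, adjusted p = 0.08). It was the 1 member called by DESeq2 (4.38% of all genes were).

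In the naive groups, the same libraries stood at the ends of the range for the 5 called genes. WT naive library 1 was the lowest of its group for 5 of the 5, with a summed level of 85.6 CPM beside 117.7, 125.0 and 125.1 CPM in libraries 2 to 4. In RGS4KO naive, library 5 was lowest for 5 of the 5 and library 8 highest for 5 of the 5, with sums of 77.3 and 119.9 CPM, and libraries 6 and 7 had 88.7 and 81.5 CPM. In RGS4KO CFA, library 15 was highest for 5 of the 5, with 84.4 CPM, while the lowest value was split among the other libraries. In WT CFA no library was highest or lowest for all of them: libraries 10 and 12 were highest for 2 each and library 11 lowest for 3. These are descriptions of single pools of 2 mice. Over all 34 members, WT naive library 4 was the highest of its group for 22 (25.4% of all genes) and library 1 the lowest for 20 (25.5%), and RGS4KO naive library 8 was the highest for 18 (31.5%).

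The spread between libraries of a group was larger for these genes than for most others. The biological coefficient of variation (BCV, the spread that edgeR estimates beyond counting error) had a median of 10.2% over the 34 genes and 6.07% over all genes tested, and 32 of the 34 lay above that value. It was highest for Fos, at 22.2%, followed by Nr4a2 at 17.0%, Egr2 at 15% and Junb at 14.9%. The lowest were Jun at 5.07% and Pim1 at 5.96%. Among genes with a mean between 1 and 100 CPM, 30 of 31 members lay above the median of 5.78%.

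**Figure D5:**
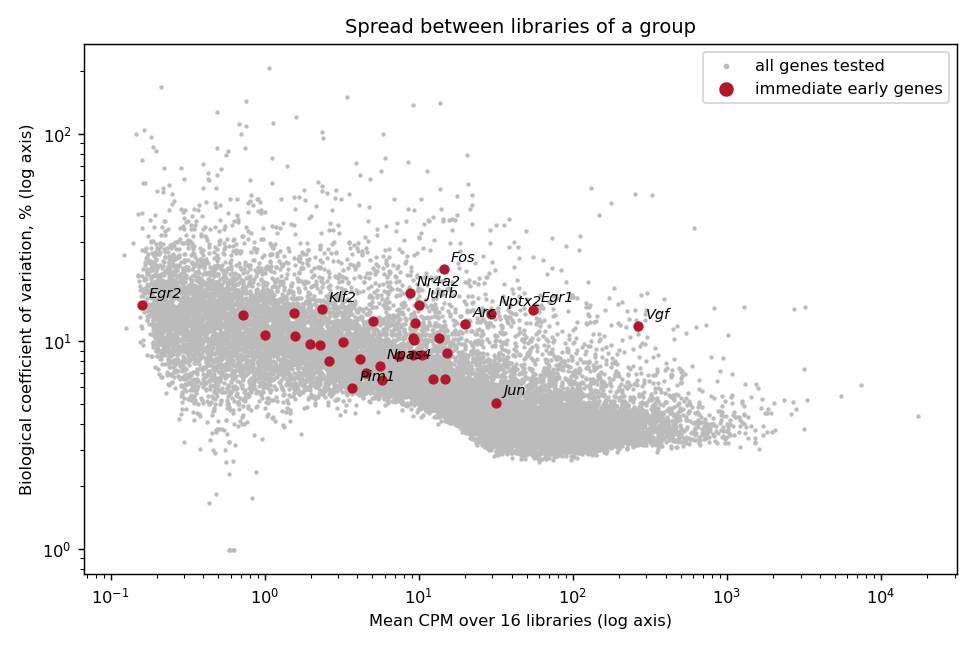
Biological coefficient of variation in percent (vertical, log axis) against mean CPM over 16 libraries (horizontal, log axis) for all 18350 genes tested (grey) and the 34 immediate early genes (red). Most red points (32 of 34) lie above the median of all genes tested, 6.07%, many of them within the grey cloud. Of the red points Fos is highest at 22.2% and Jun lowest at 5.07%.

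The regulators upstream of these genes were counted in the same fit. Of 34 tested genes for ERK, RSK and calcium-dependent kinases, CREB, SRF, ELK and MEF2 factors and their coactivators, 1 was lower (0.807% of all genes) and 0 higher (1.42%) with CFA in WT. This was Rps6ka2, an RSK kinase, at 78.0 ± 3.78 CPM in WT CFA and 90.3 ± 3.71 CPM in WT naive (log2 change -0.21 ± 0.04, adjusted p = 0.00672). In naive mice 1 was called by genotype (1.45% of all genes were, in either direction), Camk4, a calcium-dependent kinase that phosphorylates CREB, at 80.3 ± 1.77 CPM in RGS4KO naive and 68.4 ± 5.37 CPM in WT naive (log2 change 0.23 ± 0.05, adjusted p = 0.0126). Averaged over treatments, 2 of the 34 were called (3.73% of all genes): Camk4 (0.16 ± 0.03, adjusted p = 0.00595) and Rps6ka5, the kinase MSK1 (0.13 ± 0.04, adjusted p = 0.0422), were higher by genotype. With CFA in RGS4KO, genotype after CFA, the interaction and the CFA average, 0 of the 34 were called.

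Of 43 other activity-regulated genes tested, among them Fosb, Bdnf and Homer1, 1 was lower (0.807% of all genes) and 1 higher (1.42%) with CFA in WT, counts near the share over all genes. The clock gene Per1, which CREB also induces, averaged 41.0 ± 4.02 CPM in WT CFA and 58.3 ± 7.47 CPM in WT naive (log2 change -0.51 ± 0.12, adjusted p = 0.0363). Inhba, the activin A subunit, averaged 2.56 ± 0.17 and 1.69 ± 0.363 CPM in these groups (0.58 ± 0.13, adjusted p = 0.0204). Inhba was also higher in the CFA average (0.38 ± 0.09, adjusted p = 0.0441), in which Coq10b, a coenzyme Q gene, was lower (-0.16 ± 0.03, adjusted p = 0.0152). Over all genes, 1.08% were called higher and 0.73% lower in that average. Bhlhe40, a transcriptional repressor, was higher by genotype in naive mice, at 70.9 ± 2.77 CPM in RGS4KO naive and 63.1 ± 0.991 CPM in WT naive (0.17 ± 0.04, adjusted p = 0.0385). It was the 1 gene of the 43 called there, against 1.45% of all genes in either direction. In the other 4 contrasts 0 of the 43 were called. The median log2 change of the 43 genes with CFA in WT was -0.03, against -0.11 for the 34.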

How the data were processed

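The data are read counts per gene from mRNA-seq libraries of brain punches. TRIzol was used to extract RNA, and TruSeq RNA kit version 2, a kit that keeps no strand information, to build the libraries, per the labels' protocols. The authors deposited whole-number counts per Ensembl gene, without normalization. The submitters' processing notes name TopHat, DESeq2 and mm10. Not given in the sources used here are the counter's version, the annotation release and the strand setting. Lines for reads outside genes, ambiguous or not uniquely aligned (38.0% to 39.9% of listed reads) entered neither library sizes nor tests. GENCODE M21 gave symbols, positions and exon lengths for 37607 of 38924 genes.

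All 16 libraries were fitted together in edgeR 4.0.16 (R 4.3.3), with filterByExpr at a minimum count of 10, TMM scaling, 1 mean per group and the robust quasi-likelihood test in 7 contrasts. P-values were adjusted by Benjamini-Hochberg over 18350 genes, and calls were made at an adjusted p under 0.05. SEs were derived from the F statistic. The pipeline was tested on simulated counts with known fold changes. DESeq2 1.42.0, RLE scaling, other filters, thinning, fits on 2 groups and leaving out each library were alternatives. Replicates within a group differed by more than counting noise (chi-square per degree of freedom between 3.38 and 13.2). The labels call the libraries biological replicates made from pools of mice, so p-values measure the spread between pools.

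The members and gene lists were chosen with earlier results of these data known. Values per library are given for members called in any contrast and for the 3 members with the lowest unadjusted p in each pairwise contrast. Called genes of the lists of upstream regulators and other activity-regulated genes are named. Promoters printed are the 6 of those members with the most CRE or CArG matches, none on chromosome 18, and the short site TGACG was counted as a CRE match, a choice settled after the counts were seen. Promoter sequences are from RefSeq.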

Additional observations from a re-analysis of the deposited data

Results flagged for a closer look

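In each group of 4 libraries, the highest or lowest library was compared with its neighbour by Dixon's criterion for 4 values. Of 136 such groups of the 34 genes, 8 had a library that stood apart, and chance gives about 1 in 20, or 6.8 of the 136. RGS4KO naive library 8 was high for Fosl2 (10.3 CPM, others between 7.83 and 8.08), Maff (3.03 CPM, others between 1.99 and 2.16) and Egr2 (0.313 CPM, others between 0.0552 and 0.0919). RGS4KO naive library 6 was high for Csrnp1 (4.67 CPM, others between 4.0 and 4.06). WT CFA library 12 was low for Egr3 (0.989 CPM, others between 1.38 and 1.43) and for Dusp6 (12.9 CPM, others at 14.6). WT naive library 1 was low for Sik1 (12.5 CPM, others between 16.4 and 16.9) and for Csrnp1 (3.69 CPM, others between 4.41 and 4.54).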

How the results depend on the processing

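No paired analysis was possible because the replicate numbers run through the series and no number is shared between groups. The count of members called with CFA in WT, 5 by edgeR (2.23% of all genes called), was 10 by DESeq2 (4.15%), 2 with no filter on low counts (1.31%), 1 with libraries thinned to the shallowest (1.25%), 0 with the oculomotor list as covariate (0.763%) and 2 without RGS4KO naive libraries 6 and 7 (2.02%). These last 2 settings were chosen after seeing the data. For the CFA average, 5 in edgeR (1.81%), the counts were 3 with no filter (1.07%), 3 with thinning (1.22%), 0 with the covariate (0.594%) and 1 without the 2 libraries (0.865%). Elsewhere the main count was 0. DESeq2 called 1 member in each of genotype in naive mice (2.5% of all genes), genotype after CFA (2.53%), genotype average (4.38%) and interaction (0.474%). Thinning gave 1 for genotype in naive mice (1.21%). With 1 library left out, counts were 1 to 8 for CFA in WT, 2 to 7 for the CFA average, 0 to 3 for genotype in naive mice, 0 to 1 after CFA and 0 to 2 on average. The median interaction was 0.07 with thinning, against 0.17. The change of Egr4 by genotype in naive mice, -0.34, reversed to 0.04 with thinning. The cause of these shifts was not tested. Fos, Junb, Egr1, Egr4 and Nr4a3 stayed below 0 with CFA in WT under all 24 alternatives. They were picked by calls in the same libraries, which the alternatives reuse, so the kept sign is not independent support. Low counts limit Egr2 and Ptgs2 most, and with 4 pools per group small changes can be missed.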
